A study of Mus musculus with 12 samples.

Results

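Solute carriers are membrane proteins that move ions, metals, amino acids, sugars and other small molecules across the plasma membrane and the membranes of organelles. The RNA of 36 genes whose symbol begins with Slc and a digit was described in sorted airway macrophages (AMs), the resident phagocytes of the airspaces. The deposited table lists counts without naming the genes. A row received its name where the weighted sum of its counts equalled a mean normalized count in a table of 1999 genes that accompanies the paper, and the 36 are all genes with such a symbol among these 1999, 35 of them protein coding, except for *Slc7a11*, which was left out. The whole count table has 19161 rows. The 1999 genes all have a small p-value in the study's own comparison of the same libraries, so the members were selected on the p-value of the difference between genotypes. Their *Scnn1b*-Tg against WT values are therefore given as a description, and nothing about carriers in general can be read from their number or direction.

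The mice were 6-week-old females on the C57BL/6 background. *Scnn1b*-Tg mice overexpress the beta subunit of the epithelial sodium channel from the club cell secretory protein promoter, that is, in airway epithelium and not by design in macrophages, and develop mucus obstruction. WT mice were littermates without the transgene. AMs were sorted by CD45.2, Siglec-F and CD11c, and 6 libraries per genotype were compared, 1 of each genotype in batches 1, 2 and 3 and 3 of each in batch 4, where batch is the batch named in the labels. The column headers of batch 4 begin with a different run name in WT than in *Scnn1b*-Tg, so that within batch 4 run and genotype cannot be told apart, and the batch block does not remove this. Library totals were 40259958 to 121813289 counts in *Scnn1b*-Tg and 45414386 to 110091439 in WT.

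Of 11 AM markers, 5 had a named row. Levels are given in CPM, the counts of a gene relative to the size of its library after scaling by edgeR's TMM factors. *Siglecf* and *Chil3* were abundant in every library. *Siglecf* had 239 to 473 CPM in *Scnn1b*-Tg and 279 to 585 CPM in WT. *Chil3* had 22330 to 59320 CPM in *Scnn1b*-Tg and 21370 to 32060 CPM in WT. *Siglecf*, the gene of the sort marker, was called lower in *Scnn1b*-Tg (log2 fold change -0.31 ± 0.06 SE, adjusted p = 0.0895, edgeR) and *Fabp5* higher (0.59 ± 0.10, adjusted p = 0.0583). *Fabp4* had 0.39 ± 0.09, *Chil3* 0.29 ± 0.10 and *Ear1* -0.19 ± 0.06 (SE), which were not called. Of 6 genes listed for dendritic cells, 3 had a named row, *Flt3*, *Cd209a* and *Mgl2*. The paper stained CD209A and MGL2 as markers of alternative (M2) macrophage polarization, so these rows cannot tell dendritic cells from AMs. The sum of the 3 was highest, at 86.0 CPM, in the *Scnn1b*-Tg library of batch 1, where *Flt3* had 2.73 CPM. Its medians were 4.28 CPM in *Scnn1b*-Tg and 0.842 CPM in WT, and its highest WT value was 7.59 CPM. *Cd209a* and *Mgl2* were higher in *Scnn1b*-Tg in 4 of 4 batches (adjusted p = 0.139 and 0.461, edgeR), and their part in the carrier values was not tested. Of 4 neutrophil markers only *Csf3r* had a row, at 20.8 to 54.1 CPM in *Scnn1b*-Tg and 22.9 to 66.2 CPM in WT. *Scnn1b*, the gene that the transgene overexpresses, reached 72.0 CPM in *Scnn1b*-Tg and 12.7 CPM in WT, with medians of 3.52 and 0.89 CPM. WT mice have no transgene, so this row does not mark the transgene alone. By fluorescence microscopy, the paper found no SCNN1B protein in MerTK-positive AMs of either genotype. The *Scnn1b* row was highest in batches 1 and 2 of both genotypes, at 72.0 and 54.1 CPM in *Scnn1b*-Tg and 11.6 and 12.7 CPM in WT. In the other libraries it was at most 4.35 CPM. The lists of monocytes, B cells, T and NK cells, epithelium and red blood cells had no named row. In bulk RNA, fewer cells of a type and less RNA per cell cannot be told apart.

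Macrophages handle large amounts of iron and heme from engulfed red cells and microbes. Heme is freed in the phagolysosome and carried to the cytosol by the *Slc48a1* product (HRG1), opened by heme oxygenase 1 (*Hmox1*), and the iron is stored in ferritin or leaves the cell through ferroportin, the product of *Slc40a1* and the only known cellular iron exporter. Zinc carriers of family 39 bring zinc into the cytosol and those of family 30 remove it. The exchanger of large neutral amino acids is made of a heavy chain, encoded by *Slc3a2* (CD98), and a light chain such as LAT2, encoded by *Slc7a8*.

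Promoter windows are shown for the zinc carrier *Slc30a4*, whose libraries of both genotypes did not overlap, and for the chains *Slc3a2* and *Slc7a8*, whose estimates had opposite signs. They run from 250 bases before to 50 after the start in RefSeq (GRCm38.p6), 5′ to 3′ on the gene's strand, and lie at chr2:122702614-122702913 on the minus strand, chr19:8713848-8714147 on the minus strand and chr14:54781837-54782136 on the minus strand. Capitals mark matches to any of 4 motifs, which here are all matches to the core of the metal response element, searched as TGCACNC or TGCGCNC on both strands.
Slc30a4: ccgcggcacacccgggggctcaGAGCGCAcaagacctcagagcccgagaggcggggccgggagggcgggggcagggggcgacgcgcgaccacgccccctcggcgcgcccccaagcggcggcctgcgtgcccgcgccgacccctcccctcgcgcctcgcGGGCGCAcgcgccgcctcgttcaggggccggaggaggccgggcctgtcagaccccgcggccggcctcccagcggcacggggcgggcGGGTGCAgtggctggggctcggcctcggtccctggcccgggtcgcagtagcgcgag
Slc3a2: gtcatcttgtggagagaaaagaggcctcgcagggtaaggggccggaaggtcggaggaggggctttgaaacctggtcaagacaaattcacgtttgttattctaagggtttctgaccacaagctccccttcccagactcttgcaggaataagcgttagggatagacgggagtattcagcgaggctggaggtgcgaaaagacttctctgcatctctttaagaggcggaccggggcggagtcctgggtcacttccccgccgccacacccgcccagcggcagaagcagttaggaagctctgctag
Slc7a8: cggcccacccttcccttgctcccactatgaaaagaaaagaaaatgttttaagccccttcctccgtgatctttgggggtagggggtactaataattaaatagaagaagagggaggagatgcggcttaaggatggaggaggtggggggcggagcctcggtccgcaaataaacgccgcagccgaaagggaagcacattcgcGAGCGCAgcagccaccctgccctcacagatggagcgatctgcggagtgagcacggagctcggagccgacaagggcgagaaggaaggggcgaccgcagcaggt
The window of *Slc30a4* held 3 such matches, that of *Slc7a8* held 1, and that of *Slc3a2* held none of the motifs. The metal core was found in 10 of the 26 member promoters examined (38.5%) and in 25.6% of all 27025 promoters. The antioxidant response element (TGACNNNGC) was found in 5 of 26 (19.2%) against 12.5%, the E-box (CACGTG) in 2 of 26 (7.69%) against 7.24%, and the amino acid response element (TGATGNAA) in 0 of 26 against 4.06%. The median GC content was 60.8% in the member promoters and 52.7% in all promoters. Of the 36 members, *Slc10a3*, *Slc11a2*, *Slc17a9*, *Slc25a32*, *Slc35a4*, *Slc39a4*, *Slc40a1*, *Slc48a1*, *Slc6a8* and *Slc9a2* were not among the 26. A match describes letters in the window and is not evidence that a factor binds there.

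Per exon length, the members spanned a wide range. In WT AMs, 10 members were at 10 RPKM (CPM divided by the exon length in kilobases) or more, 17 at 1 to 10 RPKM and 9 under 1 RPKM. The highest was *Slc25a5*, the mitochondrial ADP/ATP carrier ANT2, at 441 ± 175 RPKM in WT and 526 ± 196 RPKM in *Scnn1b*-Tg (SD, n = 6). Its row can share counts with its pseudogenes. Next in WT came *Slc48a1* at 49.0 ± 6.7 RPKM, *Slc3a2* at 44.6 ± 16.5 RPKM and *Slc35c2* at 38.5 ± 10.3 RPKM, neighbours in this order that did not differ beyond their spread. At the low end, *Slc30a4* stood at 0.207 ± 0.129 RPKM and the glutamate carrier *Slc1a2* at 0.0129 ± 0.0166 RPKM in WT. All 36 members together had 1753 to 2334 CPM in a WT library and 1900 to 2686 CPM in an *Scnn1b*-Tg library. *Slc25a5* alone made 27.7 to 54.7% of this sum in WT and 29.2 to 52.4% in *Scnn1b*-Tg.

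**Figure D1:**
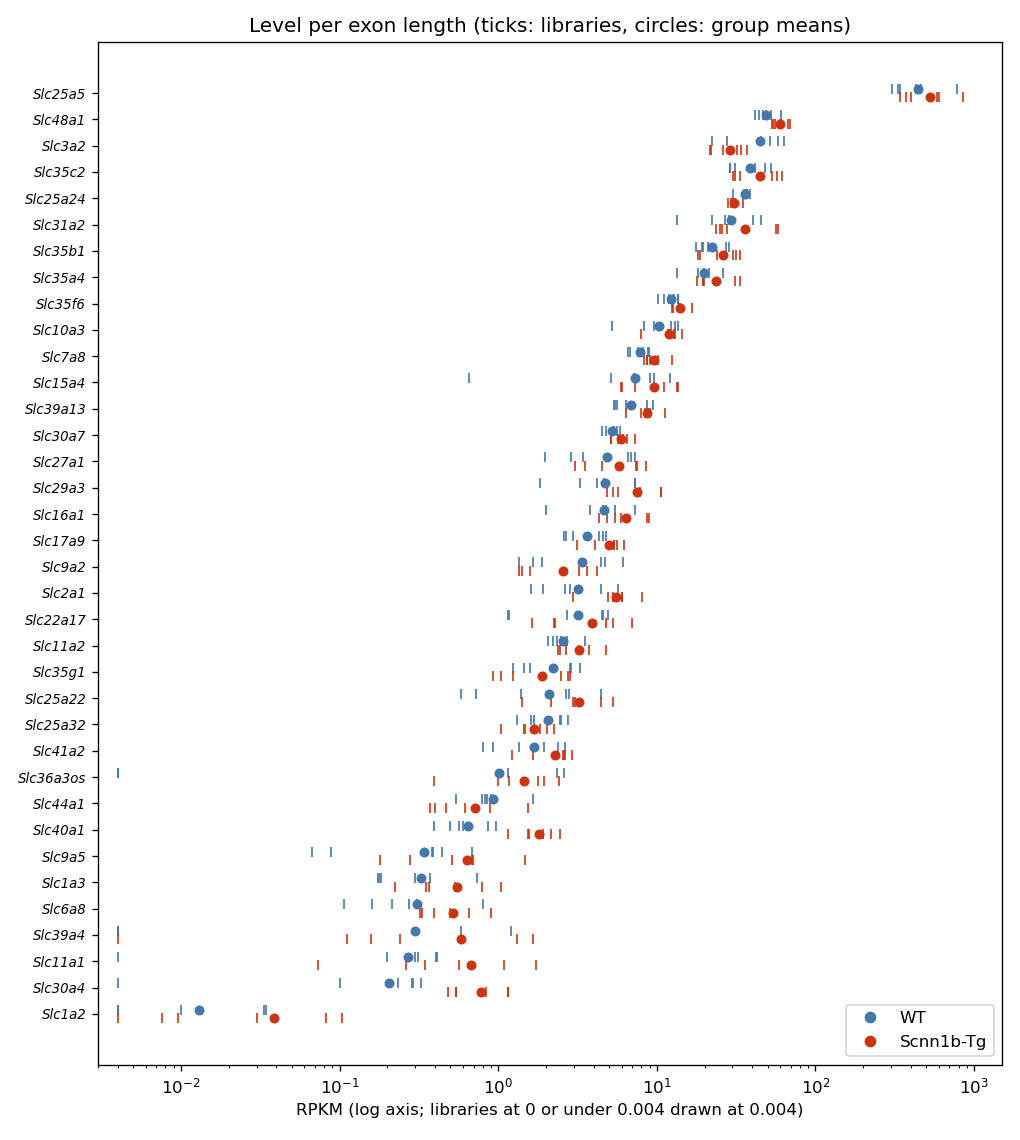
Level per exon length of the 36 genes in RPKM on a log axis, ordered by the WT mean, with 1 tick per library and circles for the means of 6 WT (blue) and 6 *Scnn1b*-Tg (red) libraries. *Slc25a5* lies at 441 RPKM in WT, and *Slc40a1* at 0.649 RPKM in WT and 1.80 RPKM in *Scnn1b*-Tg.

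Of the 36 members, all 36 passed edgeR's filter on low counts, and 1, at a higher level in *Scnn1b*-Tg, was called at an adjusted p under 0.1 in edgeR (quasi-likelihood test, batches as a block, Benjamini-Hochberg over 16972 rows). Over all rows tested, 0.442% were called, 0.336% higher and 0.106% lower. DESeq2 called 6 members (2.75% of all rows) and limma-voom 2 (0.784%). Because the same contrast chose the members, nothing is read from this share. An unadjusted p under 0.05 was reached by 20 members with a higher estimate (all rows 5.07%) and 5 with a lower one (all rows 3.58%). The log2 fold change was positive for 30 of 36 members and for 51.8% of all rows, with a median of 0.32 over the members and 0.01 over all rows. The difference was above 0.5 in size for 15 members and above 1 for 7. The member listed last in the table that chose them was the lipocalin 2 receptor gene *Slc22a17*, whose log2 fold change was 0.34 ± 0.16 (SE), and genes beyond that table were not analysed here.

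**Figure D2:**
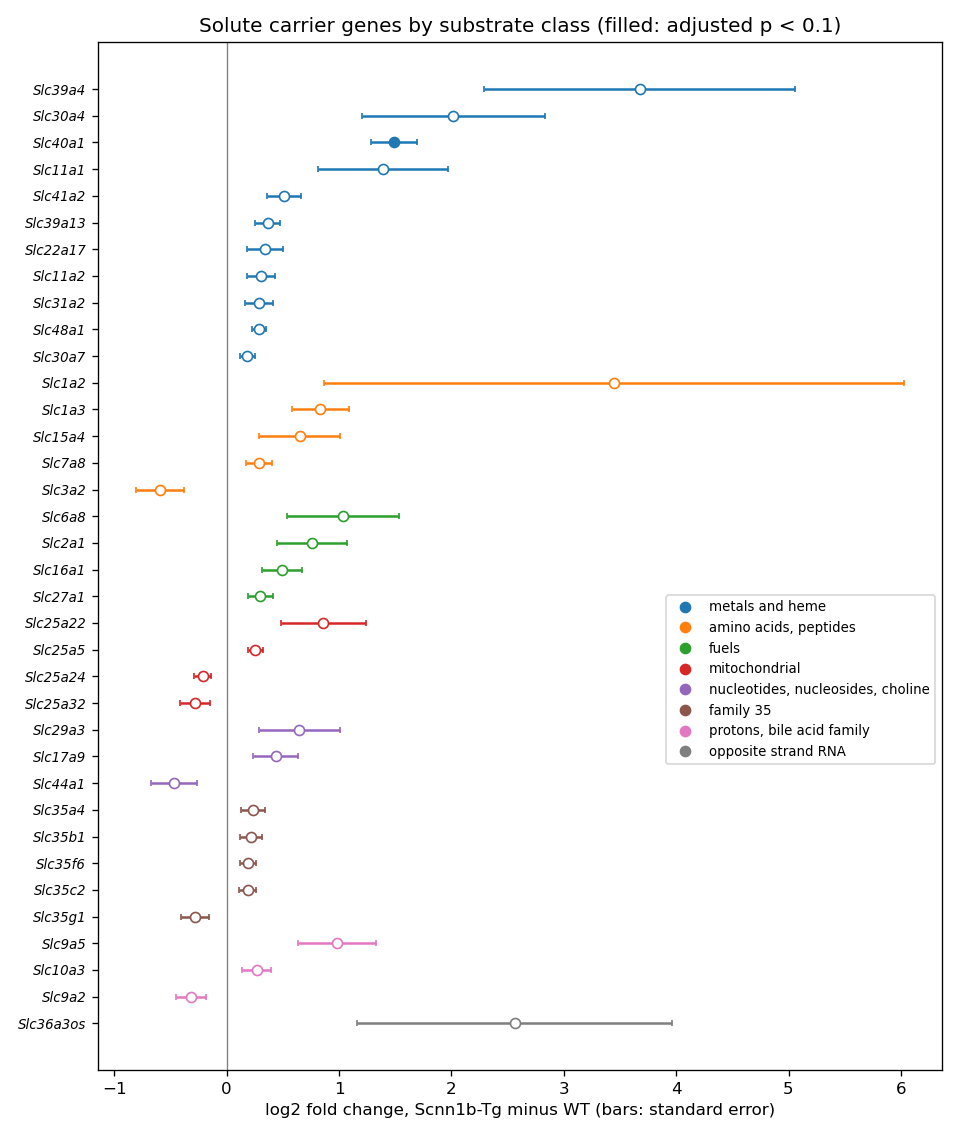
Log2 fold change of *Scnn1b*-Tg minus WT for each of the 36 genes with its standard error, coloured by substrate class, from edgeR's fit to 12 libraries. The filled circle, *Slc40a1* at 1.49, is the 1 member with an adjusted p under 0.1, and all 11 metal and heme genes lie to the right of 0.

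The called member was *Slc40a1*, the iron exporter gene (chromosome 1, 45908068 to 45926523, minus strand, GRCm38). Its lowest, median and highest levels were 10.4, 15.6 and 22.2 CPM in *Scnn1b*-Tg and 3.53, 5.27 and 8.77 CPM in WT. Every *Scnn1b*-Tg library was above every WT library. The means were 16.2 ± 4.2 and 5.84 ± 2.01 CPM (SD, n = 6), the log2 fold change was 1.49 ± 0.20 (SE), and edgeR's adjusted p was 0.0209. The gene was higher in 4 of 4 batches, by 1.34, 1.92, 1.99 and 1.25 on the log2 scale in batches 1 to 4. With each library left out in turn, it remained called in 12 of 12 fits (log2 fold change 1.39 to 1.63, adjusted p 0.0184 to 0.0822). The highest values were those of the *Scnn1b*-Tg libraries of batches 1 and 2, 22.2 and 19.3 CPM, which also had the most *Scnn1b*. The former also had the highest sum of *Flt3*, *Cd209a* and *Mgl2*. Without both libraries of batch 1 the log2 fold change of *Slc40a1* was 1.52 (adjusted p = 0.0761, edgeR). In edgeR's fits to batches 1 to 3 only and to batch 4 only, the log2 fold change was 1.74 and 1.24 (adjusted p = 0.45 and 0.282), and without the batch block it was 1.47 (adjusted p = 0.48). Genotype held 77.4% of the variance of its log2 CPM and batch 12.2%.

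Groups that did not overlap were found for 2 members, *Slc40a1* and *Slc30a4* (0.200% of all rows for a higher level in *Scnn1b*-Tg, and 0.0589% for a lower one). *Slc30a4* encodes ZnT4, which loads zinc into vesicles, and was weakly expressed. It had 2.65, 3.78 and 6.29 CPM as lowest, median and highest values in *Scnn1b*-Tg and 0, 1.43 and 1.80 CPM in WT. Its WT library of batch 3 had 0 counts, where 3 counts would be 0.0524 CPM. The log2 fold change of 2.02 ± 0.82 (SE) therefore depends on the prior count, and edgeR's adjusted p was 0.52. Its exons share 130 bases with *4930417H01Rik* on the opposite strand, and the counts were made without strand.

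*Slc48a1*, the heme carrier, was the most abundant metal or heme member per length. Its lowest, median and highest levels were 146, 158 and 189 CPM in *Scnn1b*-Tg and 114, 132 and 166 CPM in WT. The ranges overlapped, and within each of the 4 batches the *Scnn1b*-Tg mean was the higher one. The log2 fold change was 0.29 ± 0.06 (SE), with an adjusted p of 0.135 in edgeR, 0.00593 in DESeq2 and 0.0894 in limma-voom. *Slc11a2*, encoding DMT1, which brings ferrous iron into the cytosol, had 15.2, 18.8 and 30.5 CPM in *Scnn1b*-Tg and 13.2, 15.3 and 22.5 CPM in WT (log2 fold change 0.30 ± 0.13, adjusted p = 0.542). Per length, *Slc11a2* exceeded *Slc40a1* in all 12 libraries, by 2.81 to 6.23 times in WT and by 1.29 to 2.31 times in *Scnn1b*-Tg. This order rests on the exon lengths used, 6354 and 9000 bases. In CPM, *Slc40a1* was the higher one in replicate 6 of *Scnn1b*-Tg, at 17.1 against 15.7 CPM. The ratio has no test, and the choice of *Slc40a1* by its genotype difference favours a lower ratio in *Scnn1b*-Tg. *Slc11a2* exons share 402 bases with *Gm5475* on the opposite strand.

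**Figure D3:**
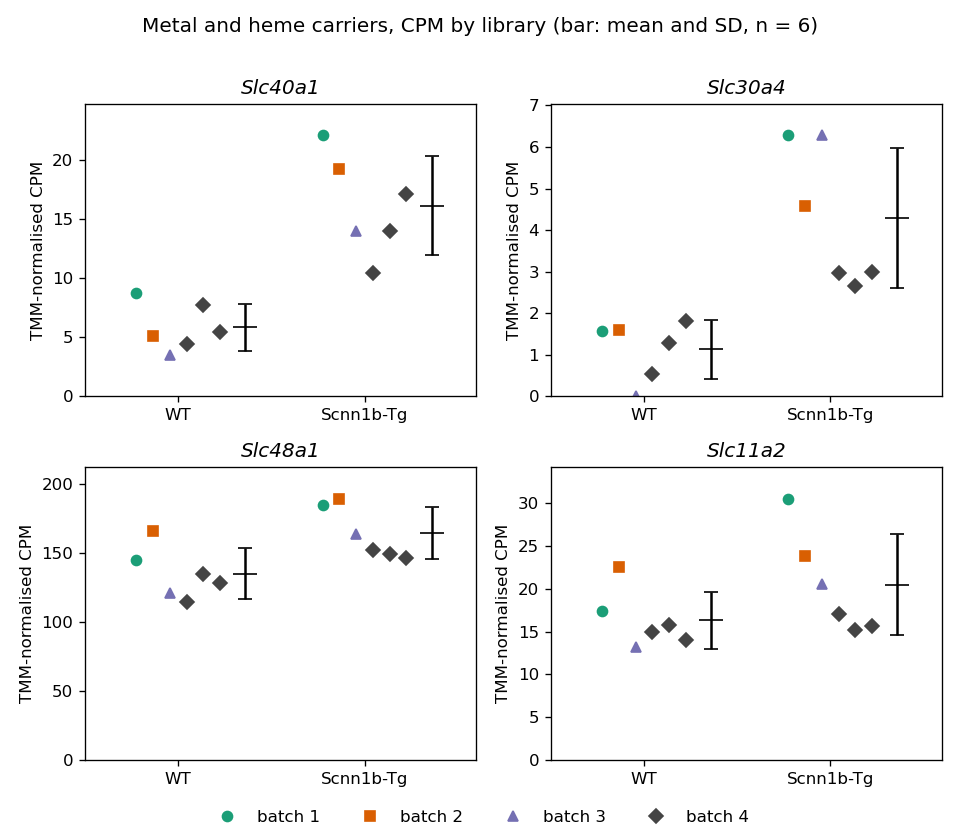
TMM-normalised CPM of *Slc40a1*, *Slc30a4*, *Slc48a1* and *Slc11a2* in each library, with marker shape and colour for the batch and a bar for the mean and SD of 6 libraries. *Slc40a1* lies between 10.4 and 22.2 CPM in *Scnn1b*-Tg, above all WT libraries, whereas the ranges of *Slc48a1* and *Slc11a2* overlap.

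The estimates of all 11 metal and heme members were positive, with a median log2 fold change of 0.36. Of the 11, 9 were higher in each of the 4 batches, as were 22 of the 36 members (61.1%) and 8.60% of all rows. The choice of members by their genotype difference favours this, so nothing about metal and heme genes is read from it. EdgeR called *Slc40a1* of the 11, and DESeq2 also called *Slc39a4* (adjusted p = 0.0203), *Slc41a2* (0.0876) and *Slc48a1*. *Slc39a4*, which encodes the zinc importer ZIP4, had the largest log2 fold change of the class, 3.67 ± 1.38 (adjusted p = 0.484), and very low counts. It stood at 0, 0.617 and 5.13 CPM in *Scnn1b*-Tg and at 0, 0 and 3.76 CPM in WT, with 0 counts in 4 WT libraries and 1 *Scnn1b*-Tg library, so its size is not interpretable. Its highest values were in batches 1 and 2 of both genotypes, at 4.11 and 5.13 CPM in *Scnn1b*-Tg and 1.81 and 3.76 CPM in WT, as were those of *Scnn1b*, whose part in this was not tested. *Slc11a1*, which encodes the phagosomal metal pump NRAMP1, had 0.273, 1.69 and 6.40 CPM in *Scnn1b*-Tg and 0, 1.14 and 1.52 CPM in WT, and its log2 fold change was 1.39 ± 0.58 (adjusted p = 0.536). The *Scnn1b*-Tg libraries of batches 1 and 2 were its highest, at 4.05 and 6.40 CPM. C57BL/6 mice carry a loss-of-function allele of this gene. The magnesium carrier gene *Slc41a2* had a log2 fold change of 0.51 ± 0.15, the zinc carrier gene *Slc39a13* 0.36 ± 0.11, the copper carrier gene *Slc31a2* 0.29 ± 0.12, and the Golgi zinc carrier gene *Slc30a7* 0.19 ± 0.07 (SE). Their adjusted p-values in edgeR were between 0.362 and 0.543. *Slc30a7* exons share 1165 and 637 bases with 2 processed pseudogenes on the opposite strand, and those of *Slc39a13* share 215 bases with *Psmc3*.

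Of 21 listed partner genes of iron and heme handling, 5 had a named row. *Hmox1* was called, at 254 ± 136 CPM in *Scnn1b*-Tg and 169 ± 70 CPM in WT (log2 fold change 0.52 ± 0.08, adjusted p = 0.040, edgeR). The ferritin light chain gene *Ftl1* had 0.31 ± 0.08 (adjusted p = 0.266), the biliverdin reductase gene *Blvrb* 0.27 ± 0.10 (0.483) and the iron regulatory protein gene *Aco1* 0.17 ± 0.07 (0.556) as log2 fold change with edgeR's adjusted p. The haptoglobin-hemoglobin receptor gene *Cd163* was near 0, at 0 to 2.55 CPM in *Scnn1b*-Tg and 0 to 0.693 CPM in WT. Of 9 partners of zinc and copper, the metallothionein genes *Mt1* and *Mt2* had a row, *Mt1* with 0.35 ± 0.10 (0.371) and *Mt2* with 0.64 ± 0.14 (0.135). Over all lists, 18 of 77 partner genes had a row, 16 with a higher and 2 with a lower estimate, and 1 was called. These 18 carry the same choice by p-value as the members.

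Of the 5 amino acid and peptide members, edgeR called none and DESeq2 called *Slc1a3*. Of the 5, 4 had a higher estimate and 1, *Slc3a2*, a lower one. The heavy chain gene *Slc3a2* had 76.5, 103 and 131 CPM as lowest, median and highest values in *Scnn1b*-Tg and 78.1, 171 and 223 CPM in WT. The groups overlapped, and *Scnn1b*-Tg was lower in 4 of 4 batches, by 0.80, 1.52, 0.03 and 0.34 on the log2 scale. The log2 fold change was -0.59 ± 0.21 (SE, adjusted p = 0.469, edgeR). The light chain gene *Slc7a8* had 41.4, 44.5 and 62.4 CPM in *Scnn1b*-Tg and 33.1, 39.6 and 44.8 CPM in WT, a log2 fold change of 0.29 ± 0.11 (adjusted p = 0.501) and a higher mean in 4 of 4 batches. Per length, the *Slc3a2* level exceeded that of *Slc7a8* by 5.70 ± 2.02 times in WT (3.16 to 7.70) and by 3.05 ± 0.72 times in *Scnn1b*-Tg (2.54 to 4.31, SD, n = 6). The ranges overlapped, and this ratio was chosen after its values were seen and has no test. *Slc3a2* and *Slc35g1* were the 2 members lower in each of 4 batches (7.22% of all rows).

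**Figure D4:**
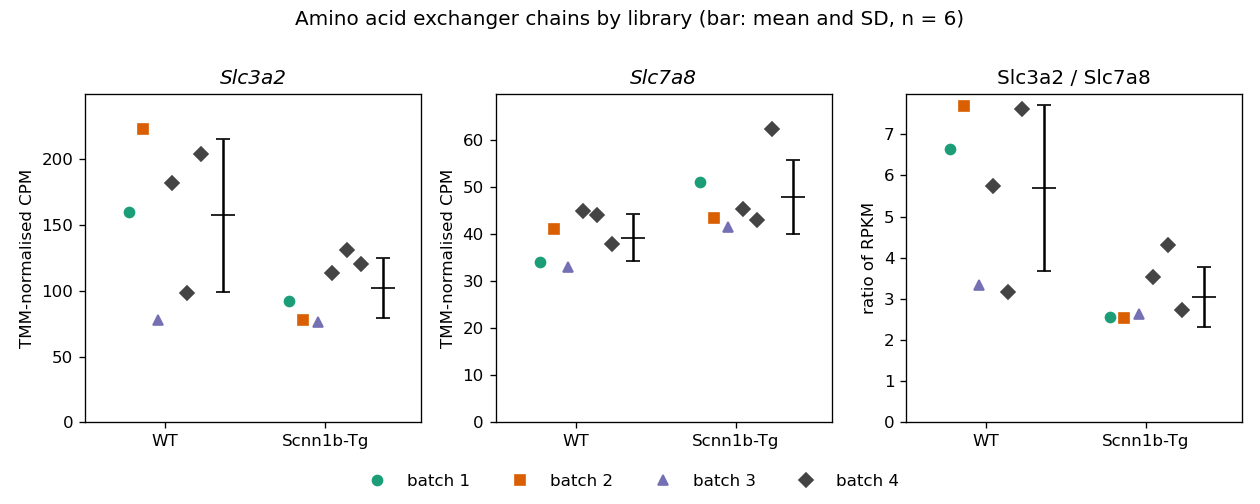
TMM-normalised CPM of *Slc3a2* and *Slc7a8* and the ratio of their RPKM in each library, with marker shape and colour for the batch and a bar for the mean and SD of 6 libraries. The ratio is 3.16 to 7.70 in WT and 2.54 to 4.31 in *Scnn1b*-Tg.

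*Slc1a3* encodes the glutamate carrier GLAST. It had 1.91, 3.83 and 8.94 CPM in *Scnn1b*-Tg and 1.49, 2.06 and 6.30 CPM in WT, and its log2 fold change was 0.83 ± 0.25 (adjusted p = 0.37 in edgeR and 0.0839 in DESeq2). *Slc1a2*, which encodes the related carrier GLT-1, was barely detected. It had 0, 0.260 and 1.37 CPM in *Scnn1b*-Tg and 0, 0.0658 and 0.451 CPM in WT, with 0 counts in all 3 WT libraries of batch 4, where 3 counts would be 0.0499 to 0.0557 CPM. *Slc15a4*, the endolysosomal peptide and histidine carrier gene, ranged from 31.8 to 72.3 CPM in *Scnn1b*-Tg and from 3.48 to 64.0 CPM in WT. The 3.48 CPM was that of the WT library of batch 2, and the other WT libraries had 27.3 to 64.0 CPM. By batch, its log2 difference was 3.19 in batch 2 and 0.03, 0.24 and 0.32 in batches 1, 3 and 4. The log2 fold change of 0.65 ± 0.36 (adjusted p = 0.679) was 0.23 without either library of batch 2. Among 20 partners of amino acid sensing and glutamate, 5 had a row and none was called. The aspartate aminotransferase genes *Got1* and *Got2* had log2 fold changes of 0.63 ± 0.17 and 0.22 ± 0.09, the Rag GTPase gene *Rragc* 0.20 ± 0.06, the lysosomal adaptor gene *Lamtor1* 0.17 ± 0.06 and the glutamine synthetase gene *Glul* -0.19 ± 0.07 (SE).

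The 4 fuel carriers had higher estimates in *Scnn1b*-Tg, and none was called by edgeR, DESeq2 or limma-voom. *Slc2a1*, encoding the glucose carrier GLUT1, had 10.4, 19.7 and 28.2 CPM in *Scnn1b*-Tg and 5.62, 9.58 and 20.0 CPM in WT. Every *Scnn1b*-Tg library lay above the WT median, with overlap between the groups, and the log2 fold change was 0.76 ± 0.31 (adjusted p = 0.53, edgeR). The lactate and pyruvate carrier gene *Slc16a1* (MCT1) had 0.50 ± 0.18 (adjusted p = 0.466), and the fatty acid carrier gene *Slc27a1* had 0.30 ± 0.11 (0.477). *Slc6a8*, the creatine carrier gene, had the largest estimate of the class, 1.04 ± 0.49 (adjusted p = 0.611), from 1.68, 2.31 and 4.68 CPM in *Scnn1b*-Tg and 0.556, 1.27 and 4.15 CPM in WT. Its WT library of batch 1 was the highest of its group and above its *Scnn1b*-Tg counterpart. Of 20 glycolysis partners, 5 had a row and none was called. *Hk2* had a log2 fold change of 0.38 ± 0.14, *Gpi1* 0.18 ± 0.05, *Aldoa* 0.20 ± 0.06, *Pgam1* 0.31 ± 0.09, and *Bsg*, the chaperone of MCT1, -0.20 ± 0.09 (SE). Of 4 creatine partners, *Gatm*, which makes the creatine precursor, had 1.13 ± 0.23 (adjusted p = 0.116, edgeR).

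The 4 mitochondrial carriers had estimates of both signs, and edgeR called none, whereas DESeq2 called *Slc25a5*. *Slc25a5* had 562, 808 and 1408 CPM in *Scnn1b*-Tg and 499, 634 and 1280 CPM in WT, and a log2 fold change of 0.25 ± 0.07 (adjusted p = 0.271 in edgeR and 0.0589 in DESeq2). The groups overlapped widely, and the *Scnn1b*-Tg mean was higher in 4 of 4 batches. *Slc25a22*, encoding a mitochondrial glutamate carrier, had the largest estimate of the class, 0.86 ± 0.38 (adjusted p = 0.57), from 8.44, 18.0 and 31.7 CPM in *Scnn1b*-Tg and 3.47, 12.2 and 26.7 CPM in WT, and was 0.57 without either library of batch 3. The ATP-magnesium and phosphate carrier gene *Slc25a24* had -0.21 ± 0.07 and the folate carrier gene *Slc25a32* -0.28 ± 0.13 (SE, adjusted p = 0.449 and 0.613, edgeR).

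Among carriers of nucleotides, nucleosides and choline, *Slc29a3*, which encodes the lysosomal nucleoside carrier ENT3, had 28.2, 39.7 and 62.2 CPM in *Scnn1b*-Tg and 10.7, 25.8 and 42.6 CPM in WT. The groups overlapped, and the log2 fold change was 0.65 ± 0.36 (adjusted p = 0.679). The vesicular nucleotide carrier gene *Slc17a9* had 0.44 ± 0.20 and the choline carrier gene *Slc44a1* -0.47 ± 0.21 (SE). The 5 members of family 35, which includes nucleotide sugar carriers of the endoplasmic reticulum and Golgi, had narrow estimates between -0.28 and 0.24. *Slc35g1* was the lowest of them, with 4.32, 8.68 and 13.2 CPM in *Scnn1b*-Tg and 5.73, 10.3 and 15.3 CPM in WT (log2 fold change -0.28 ± 0.12, adjusted p = 0.561). *Slc35c2*, *Slc35f6*, *Slc35b1* and *Slc35a4* had 0.19 ± 0.08, 0.19 ± 0.07, 0.21 ± 0.10 and 0.24 ± 0.11 (SE). The sodium-proton exchanger gene *Slc9a5* had 0.945, 3.13 and 7.69 CPM in *Scnn1b*-Tg and 0.351, 2.01 and 3.61 CPM in WT (0.98 ± 0.35, adjusted p = 0.461), the related *Slc9a2* had -0.32 ± 0.14, and *Slc10a3*, of the bile acid carrier family, 0.27 ± 0.13 (SE). Exons of *Slc10a3* share 258 bases with *Ubl4a* on the same strand, 12.8% of its exon length. *Slc36a3os*, an RNA annotated opposite *Slc36a3* and not a carrier, had 0.205, 0.769 and 1.26 CPM in *Scnn1b*-Tg and 0, 0.300 and 1.36 CPM in WT, with 0 counts in all 3 WT libraries of batch 4.

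The choice of members used the overall genotype effect and not its change between batches, but a small p also favours genes with a small spread between libraries. Within batch 4 run and genotype cannot be told apart, so a difference between the batch sets cannot be read as a change of the genotype effect alone. Tested in edgeR as an added term for the set of batches (1 to 3 against 4), the change of the genotype effect was called for 0 of 36 members at an adjusted p under 0.1 (0.112% of all rows), and limma-voom also called 0. At an unadjusted p under 0.05, 7 members differed (19.4%), against 6.66% of all rows, and nothing is read from this share. These were *Slc1a2*, *Slc9a5*, *Slc10a3*, *Slc31a2*, *Slc35a4*, *Slc36a3os* and *Slc41a2*. The smallest p was that of *Slc36a3os*, 0.00102 (adjusted p = 0.367, edgeR), in a gene with 0 counts in the WT libraries of batch 4. The copper carrier gene *Slc31a2* had a log2 fold change of 0.56 ± 0.13 in batches 1 to 3 and 0.02 ± 0.13 in batch 4 (adjusted p of the difference = 0.651, edgeR). *Slc41a2* had 0.80 ± 0.18 and 0.22 ± 0.18 (SE), *Slc10a3* 0.56 ± 0.13 and -0.02 ± 0.13, and *Slc35a4* 0.48 ± 0.10 and -0.01 ± 0.10. For *Slc40a1* the values were 1.75 ± 0.28 and 1.24 ± 0.27 (adjusted p of the difference = 0.852, edgeR). The sign was the same in both sets for 33 of 36 members and for 52.9% of all rows, a share that the choice of members by their overall difference favours.

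**Figure D5:**
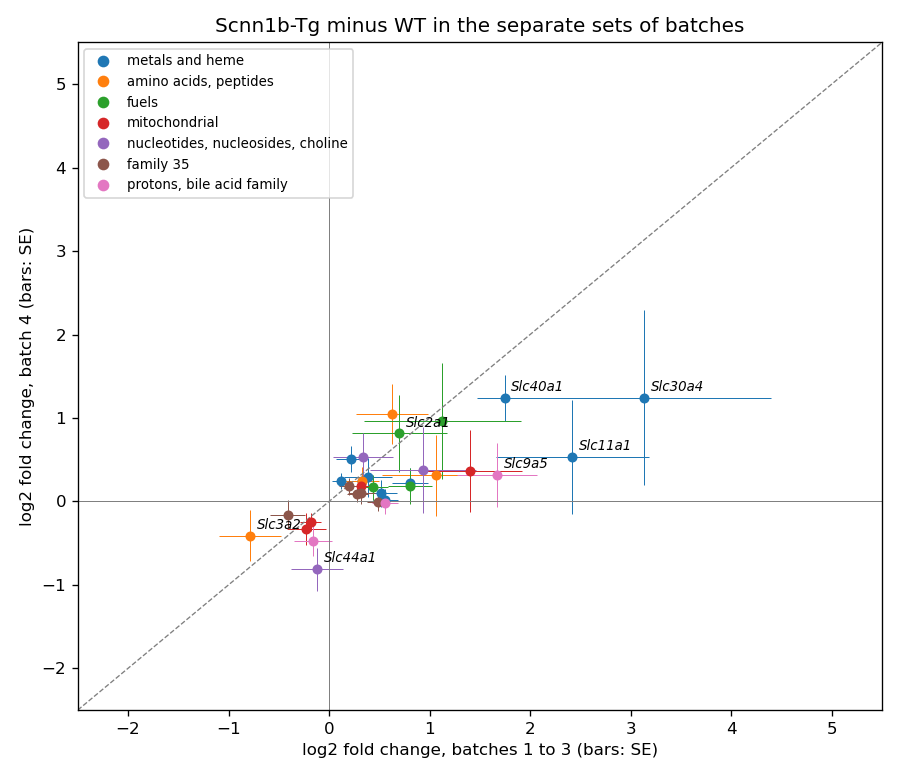
Log2 fold change of *Scnn1b*-Tg minus WT with its standard error in batches 1 to 3 (horizontal) and in batch 4 (vertical) for the 33 members with counts in both genotypes of batch 4, coloured by substrate class, with the line of equal values dashed. *Slc40a1* lies at 1.75 and 1.24, and most members lie within 1 unit of 0 on both axes.

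The level itself, with genotype in the model, differed between batches 1 to 3 and batch 4 for 22 of 36 members at an adjusted p under 0.1 (61.1%), close to the 59.3% of all rows. There were 11 members at a higher level in batches 1 to 3 (all rows 30.9%) and 11 at a lower level (all rows 28.4%). *Slc25a5* and *Slc35c2* were higher there by 0.79 ± 0.07 and 0.76 ± 0.08 on the log2 scale (SE, adjusted p = 3.8e-06 and 1.36e-05, edgeR). *Slc22a17*, *Slc27a1* and *Slc35g1* were lower there, with log2 differences of -1.52 ± 0.16, -1.22 ± 0.11 and -1.21 ± 0.13 (SE). For these 5 members the difference between batch sets was larger in size than the estimated difference between genotypes, a comparison that was not tested. For *Slc40a1* the level difference was 0.14 ± 0.20 (adjusted p = 0.582, edgeR). Over the members, batch held a median of 61.4% of the variance of log2 CPM and genotype 18.2%, against 66.0% and 2.18% over all rows, where the share of genotype is raised by the choice of members. The paper describes paired-end baseline libraries from a SMART-Seq kit and single-end ones from a NEBNext kit, run on different sequencers. The kind is not given per sample, and only the column headers of batch 4 begin with a run name. If the kinds follow the batch sets, kit, sequencer and read layout cannot be told apart from batch. Their part in these differences was not tested.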

How the data were processed

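According to the study's methods, reads were mapped by HISAT2 (mm10, unstranded) and summarised per gene of GENCODE M20 by StringTie. The deposited values are unnormalized counts, which StringTie's script rounds from coverage. Rows were paired with genes within a relative difference of 1e-12, for identity only. The members, classes, partner and marker lists were chosen with earlier results of these data known. Members named with their lowest, median and highest values are those called, those whose groups did not overlap, the one with the largest change of each class, and others chosen after their values were seen.

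Counts were fitted with edgeR 4.0.16 in R 4.3.3 (TMM factors, edgeR's expression filter, quasi-likelihood test, batch as a block, Benjamini-Hochberg over 16972 rows). Alternatives used DESeq2 1.42.0 and limma-voom 3.58.1, other filters, blocks and parts of the libraries. The procedures were tested on simulated data. CPM uses TMM library sizes, RPKM divides it by the GENCODE M21 exon length, and errors are the SD over libraries for levels and the standard error of the fit for log2 fold changes, with depth in the opening of the report. Same-batch libraries deviated together in batches 1, 2 and 3 (correlations 0.56, 0.59 and 0.39), whereas the numbers within batch 4 pair nothing (-0.08, 0.0033 and -0.0043). Libraries of the same genotype were distinct (30 pairs, chi-square per row of 58.4 or more). Nothing in the sources says whether a library is 1 animal, so p-values measure the spread between libraries.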

Additional observations from a re-analysis of the deposited data

Results flagged for a closer look

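In 4 of the 72 groups of 6 libraries, 1 library stood apart from the others by Dixon's criterion, and chance flags about 1 in 20 groups. The criterion takes no account of batch, and all 4 were WT libraries. The glutamate carrier gene *Slc1a3* reached 6.30 CPM in the WT library of batch 2, against 1.49 to 3.17 CPM in the others, and the *Scnn1b*-Tg library of that batch, at 8.94 CPM, was also the highest of its group. The creatine carrier gene *Slc6a8* reached 4.15 CPM in the WT library of batch 1, against 0.556 to 1.61 CPM, while its *Scnn1b*-Tg counterpart, at 2.04 CPM, was not the highest of its group. The ADP/ATP carrier gene *Slc25a5* reached 1280 CPM in the WT library of batch 3, against 499 to 767 CPM, with 1408 CPM in the *Scnn1b*-Tg library of that batch, the highest of its group. The choline carrier gene *Slc44a1* reached 11.5 CPM in the WT library of batch 1, against 3.75 to 6.22 CPM, with 10.7 CPM in the *Scnn1b*-Tg library of that batch, again the highest of its group.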

How the results depend on the processing

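The number of members called was 1 as reported, 6 with DESeq2 (*Slc1a3*, *Slc39a4*, *Slc40a1*, *Slc41a2*, *Slc48a1* and *Slc25a5*, where 438 of 15944 rows, 2.75%, were called) and 2 with limma-voom (*Slc40a1* and *Slc48a1*, where 133 rows, 0.784%, were called). With edgeR it was 0 without the replicate block, with 0 rows called in all, 0 in batches 1 to 3 only, again with 0 rows, and 0 of 34 tested in batch 4 only, where 55 of 14015 rows were called (43 higher and 12 lower). At an unadjusted p under 0.05, these 3 edgeR fits held 4, 14 and 11 members, and the p of *Slc40a1* was 0.000111, 0.000712 and 0.00408 (adjusted p = 0.48, 0.45 and 0.282). With a replicate block of 6 pairs, 30 rows were called against 75 as reported, and *Slc40a1* was called (adjusted p = 0.040). The fits to all rows called 42 at an adjusted p under 0.05, 29 without batch 1, an alternative chosen after seeing the data, and 28 to 60 with each library left out in turn, lowest without replicate 1 of *Scnn1b*-Tg and without replicate 6 of WT. Leaving out either library of batches 1, 2 or 3 also takes its partner out of the comparison. The estimate of 3 members reversed under an alternative, to -1.84 for *Slc1a2* in batches 1 to 3 only and to -0.0103 for *Slc35a4* and -0.0191 for *Slc10a3* in batch 4 only. The cause was not tested. Without either library of batch 1, the log2 fold change moved over 1.5 times, to 0.15 for *Slc35a4*, 0.11 for *Slc35c2*, 0.19 for *Slc27a1*, 0.20 for *Slc11a2* and 0.21 for *Slc22a17*. It moved likewise to 0.23 for *Slc15a4* without either library of batch 2, and to 0.18 for *Slc31a2* and 0.57 for *Slc25a22* without either of batch 3. For the members' own log2 fold changes, 777 further values kept their direction and their side of the threshold. The level difference between batch sets was called for 21 to 24 members with 1 library left out. Genes at under 1 CPM are limited by depth, and their fold changes depend on the prior count.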
